A study of Mus musculus with 768 samples.

Results

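Death ligands and costimulatory receptors of the TNF family were examined in single NK cells that had infiltrated MTAP1A tumors. The 8 genes were chosen by name out of 24490 gene entries: 4 ligands, namely Tnfsf10 (TRAIL), Fasl (Fas ligand), Ltb (lymphotoxin beta) and Tnfsf14 (LIGHT), and 4 receptors, namely Tnfrsf9 (4-1BB), Tnfrsf18 (GITR), Tnfrsf4 (OX40) and Cd27. They were followed in wells with 1000 to 3500 genes above 0 RPKM, counting the 14761 genes that were above 0 in at least 3 wells. RPKM scales the reads of a gene by its length and by the reads mapped in the cell, so levels of different genes can be set side by side. Of 768 wells, 726 were kept, 360 of them from WT and the others from PD-1-/- mice. A cell is said to have a gene where its RPKM was above 0.

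MTAP1A is a fibrosarcoma line with low MHC class I that came from a mouse lacking Tap1. It was grown in C57BL/6 mice that were either WT or PD-1-/-. NK1.1+ cells negative for markers that included CD3 and GR1 were sorted one by one and sequenced with SMART-SEQ2, which reads whole transcripts and adds no molecular identifiers. Tumors of 3 mice were pooled for each genotype, and each pool filled 1 of 2 plates of equal size. Genotype, pool and plate therefore cannot be told apart, and no test between genotypes was possible. Every interval given with a share is an exact binomial 95% interval over the cells of 1 pool and covers counting error only.

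The PD-1-/- allele lacks exons 3 and 4 of Pdcd1 and can still be transcribed, so the transcript does not check the labels. Pdcd1 was found in 9 WT cells (2.50%) and in 47 PD-1-/- cells (12.8%), whereas its mean over all kept cells was 14.4 and 13.9 RPKM. The median cell held 325288 recovered reads on the WT plate and 347914 on the PD-1-/- plate, with 23 WT and 14 PD-1-/- cells below 100000. These counts cover only the 9949 genes whose reads were recovered. The lowest were 1314 in a kept WT cell and 1361 in a kept PD-1-/- cell. Whether recovery failed in such cells was not tested. Of the NK markers, Fcer1g was found in all 360 WT cells, and the summed RPKM of the 8 NK markers was never below 1391 in a kept cell. The summed RPKM of the T, cycling, myeloid, neutrophil, B and fibrosarcoma marker lists had a median of 0 in both genotypes. A transcript of Cd3d, Cd3e or Cd3g was nevertheless found in 65 WT and 83 PD-1-/- cells of this CD3-negative sort, whereas Cd4 was found in 3 and 4 cells and Cd8a in 7 and 7. Shares in cells with and without CD3 transcripts are given below where they moved with a result.

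TNF family ligands are trimers, mostly anchored in the membrane, that gather trimers of their receptors. TRAIL and Fas ligand engage death receptors on the target cell, which recruit FADD and activate caspase-8, whereas granzymes reach the target through pores made by perforin. LTb is exposed together with lymphotoxin alpha and signals through the LTb receptor, and LIGHT binds HVEM and the same LTb receptor. 4-1BB, GITR, OX40 and CD27 have no death domain and signal through TRAF adaptors toward NF-kB. In the mouse, CD27 marks earlier stages of NK cell maturation than CD11b, and TRAIL is known from NK cells and other innate lymphoid cells that reside in tissues such as liver.

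The DNA just upstream of the starts of 4 of these genes is shown, those of both death ligands and, as the commonest lymphotoxin gene and the receptor gene with the highest levels, of Ltb and Tnfrsf9. All 8 genes had a promoter in RefSeq (GRCm38.p6). Tnfsf10 is at chr3:27317077-27339665 on the plus strand, Fasl at chr1:161780691-161788495 on the minus strand, Ltb at chr17:35194507-35196305 on the plus strand and Tnfrsf9 at chr4:150920155-150946104 on the plus strand. Each sequence is the 250 bases before the start, read 5′ to 3′ on the strand of the gene, which for Tnfsf10 is chr3:27316827-27317076, for Fasl chr1:161788496-161788745, for Ltb chr17:35194257-35194506 and for Tnfrsf9 chr4:150919905-150920154 (the first of its 2 starts). Capitals mark matches to motif letters.
Tnfsf10: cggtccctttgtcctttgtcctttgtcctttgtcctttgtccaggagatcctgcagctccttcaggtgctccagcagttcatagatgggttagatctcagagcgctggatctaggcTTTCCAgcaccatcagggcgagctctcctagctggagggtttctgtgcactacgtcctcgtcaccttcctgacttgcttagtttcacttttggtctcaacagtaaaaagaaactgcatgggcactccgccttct
Fasl: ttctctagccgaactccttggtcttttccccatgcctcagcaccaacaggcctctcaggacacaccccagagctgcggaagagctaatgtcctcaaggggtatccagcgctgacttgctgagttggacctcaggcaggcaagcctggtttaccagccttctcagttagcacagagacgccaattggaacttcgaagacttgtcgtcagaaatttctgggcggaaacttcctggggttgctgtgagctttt
Ltb: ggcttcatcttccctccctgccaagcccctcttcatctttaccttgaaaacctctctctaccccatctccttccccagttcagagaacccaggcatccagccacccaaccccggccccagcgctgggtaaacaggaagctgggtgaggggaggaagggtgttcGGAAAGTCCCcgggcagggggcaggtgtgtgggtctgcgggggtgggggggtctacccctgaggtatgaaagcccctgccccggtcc
Tnfrsf9: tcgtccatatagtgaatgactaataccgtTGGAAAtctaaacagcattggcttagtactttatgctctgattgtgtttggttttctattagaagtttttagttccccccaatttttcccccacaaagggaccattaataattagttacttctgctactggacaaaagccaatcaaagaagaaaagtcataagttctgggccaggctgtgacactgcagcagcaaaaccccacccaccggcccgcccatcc
Letters of 4 motifs were searched on both strands over windows of 300 bases, 250 before to 50 after each start. The NF-kB letters (GGGA, any 2 bases, TTCC) stood in 1.47% of 32851 windows of all genes, the ISRE letters (GAAA, any 2 bases, GAAA) in 3.44%, the AP-1 letters TGANTCA in 7.81% and the NFAT letters TGGAAA in 21.4%. Among the 9 windows of the 8 genes, the NF-kB letters occurred once, on the minus strand 87 bases before the start of Ltb. The AP-1 letters occurred in Tnfsf14 and in the second start of Tnfrsf9, and the NFAT letters in Tnfsf10, Tnfsf14, Tnfrsf9 and Tnfrsf4. The NF-kB letters are a part of a looser form (GGG, any 5 bases, CC), which stood in 50.8% of all windows and in 5 of these 9.

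Of the 8 genes, 5 were found in most cells and 3 in a minority. In WT cells the order by share was Cd27 at 72.8% (interval 67.9 to 77.3), Fasl at 68.1% (63 to 72.8), Tnfrsf9 at 66.1% (61 to 71), Ltb at 63.1% (57.8 to 68.1) and Tnfrsf18 at 62.8% (57.6 to 67.8). Neighbors in this order did not differ beyond their intervals. A gap then separated these genes from Tnfsf14 at 16.9% (61 cells, 13.2 to 21.2) and Tnfsf10 at 12.2% (44 cells, 9.02 to 16.1), whose intervals overlapped, and from Tnfrsf4 at 1.39% (5 cells, 0.452 to 3.21). In PD-1-/- cells Cd27 led at 81.4% (77.1 to 85.3), above the interval of Fasl at 71.6% (66.7 to 76.2). Tnfrsf18 at 65.6%, Ltb at 59.8% and Tnfrsf9 at 59.6% followed, with overlapping intervals from neighbor to neighbor, and then Tnfsf14 at 17.8% (65 cells), Tnfsf10 at 16.9% (62 cells) and Tnfrsf4 at 3.28% (12 cells).

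**Figure D1:**
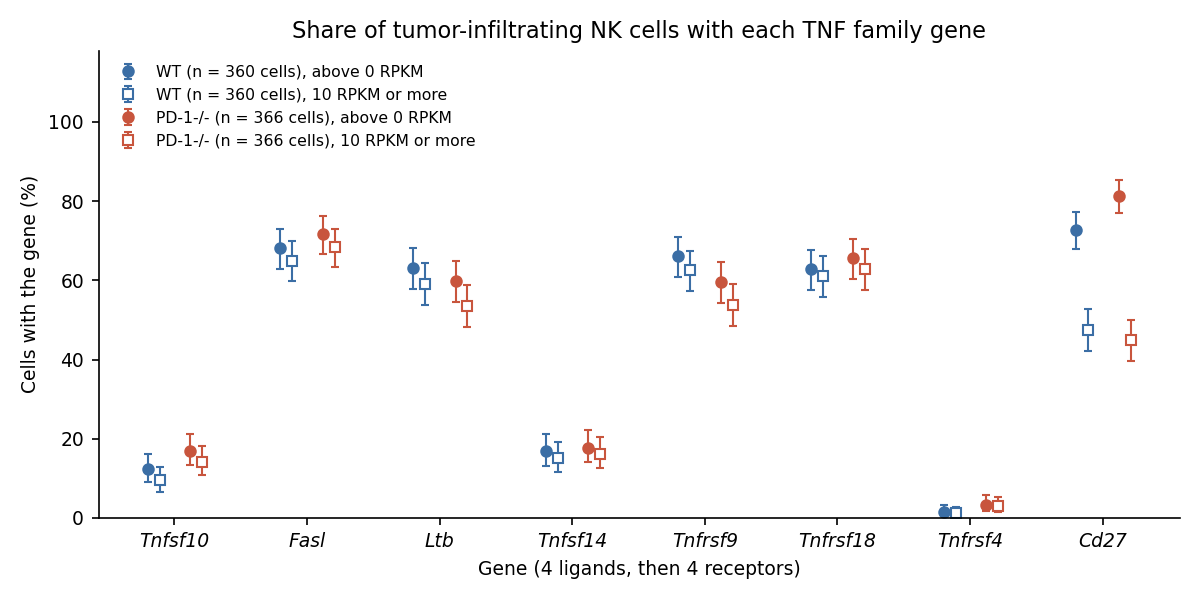
Share of kept cells with each gene, in percent, for WT (blue) and PD-1-/- (red) cells. Filled circles count cells above 0 RPKM and open squares cells at 10 RPKM or more, and bars are exact binomial 95% intervals. The circles and squares lie close together for 7 genes, whereas for Cd27 the share falls to 47.5% in WT and 44.8% in PD-1-/- cells at 10 RPKM or more.

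TRAIL was found in few cells and at low levels. Fas ligand was found in most cells, with medians somewhat below those of Tnfrsf9 and Tnfrsf18. In the 44 WT cells with Tnfsf10, its RPKM ran from 1.30 to 436 with a median of 40.3, and in the 62 PD-1-/- cells from 0.402 to 356.5 with a median of 57.7. The ranges of the genotypes overlapped over nearly their whole length. In WT cells with Fasl the quartiles were 188.5, 397 and 681 RPKM, and in PD-1-/- cells 181.9, 467 and 765. The highest cell reached 1764 and 2146 RPKM. Fasl was at 1000 RPKM or more in 30 WT and 38 PD-1-/- cells, a level that no cell had for Tnfsf10.

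Ltb and Tnfsf14 differed in share more than in level. Ltb had a median of 327.9 RPKM in the WT cells and of 333.2 in the PD-1-/- cells that had it, with quartiles of 175.2 and 575 in WT and 145.3 and 621 in PD-1-/- cells. Tnfsf14 was rarer, but where it was found its median was 209.8 RPKM in WT and 272.7 in PD-1-/- cells. The quartiles of the genes overlapped, 83.1 to 346.2 RPKM for Tnfsf14 in WT cells. Of the other ligands of the family, Tnfsf8 (CD30 ligand) was the most frequent, at 14.7% of WT cells and 15% of those from PD-1-/- mice, Tnf in 10.8% and 10.7%, and Lta, which encodes lymphotoxin alpha, in 8.06% and 6.01%. Cd70, the ligand of CD27, was found in 2 WT cells and listed at 0 in every PD-1-/- cell, and Tnfsf18, the ligand of GITR, in 1 cell of each genotype.

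Among the receptors, Tnfrsf9 and Tnfrsf18 had the highest levels. Tnfrsf9 had a median of 555 RPKM in WT cells that had it and of 498 in PD-1-/- cells, and its highest cells reached 3934 and 6754 RPKM. Tnfrsf18 had medians of 547 and 488 RPKM. The quartiles of Tnfrsf9, 271.9 and 1020 RPKM in WT cells, enclosed those of Tnfrsf18, 329.1 and 855 RPKM. Tnfrsf4 was found in 5 WT cells with a median of 87.6 RPKM and in 12 PD-1-/- cells in which the highest reached 1895 RPKM. The receptors of both death ligands were rare: Fas was found in 15 WT and 6 PD-1-/- cells and Tnfrsf10b, which encodes the receptor of TRAIL, in 8 and 5. Of the other receptors with a death domain, Tnfrsf1a (TNFR1) had a share of 33.9% in WT against 36.3% in PD-1-/- cells, and Tnfrsf21 was in 15 and 12 cells and Tnfrsf25 in 2 and 6.

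Cd27 stood apart by its levels, which formed a high and a low group of cells. Of the WT cells with Cd27, 34.7% lay under 10 RPKM, and of the PD-1-/- cells 45%. A single recovered read stood behind 27.9% of the WT and 27.5% of the PD-1-/- cells with Cd27, whereas for the other 4 common genes it stood behind 2.21% to 7.80% of the cells that had the gene. At 10 RPKM or more, the share of WT cells with Cd27 was 47.5% (interval 42.2 to 52.8), against 44.8% for PD-1-/- cells (39.6 to 50.1), with medians of 312.4 and 249.2 RPKM. The order of the genotypes thus turned with the level that counted as found. Thinning every cell to 100000 reads gave 60.2% of WT and 57.7% of PD-1-/- cells, leaving out 23 and 14 shallower cells, against 74.8% and 82.4% of the same cells without thinning. Cd27 overlaps a long noncoding RNA, E130112N10Rik, and its RPKM came in several steps, so that reads were counted from the smallest step. Read counts are uncertain for Cd27, Tnfrsf18, Tnfrsf9 and Fasl, since whole reads were recovered for 60.5%, 56%, 76.3% and 85.7% of their low values. Reads of these genes were all counted from the smallest step. The cause of the low group of Cd27 was not tested.

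**Figure D2:**
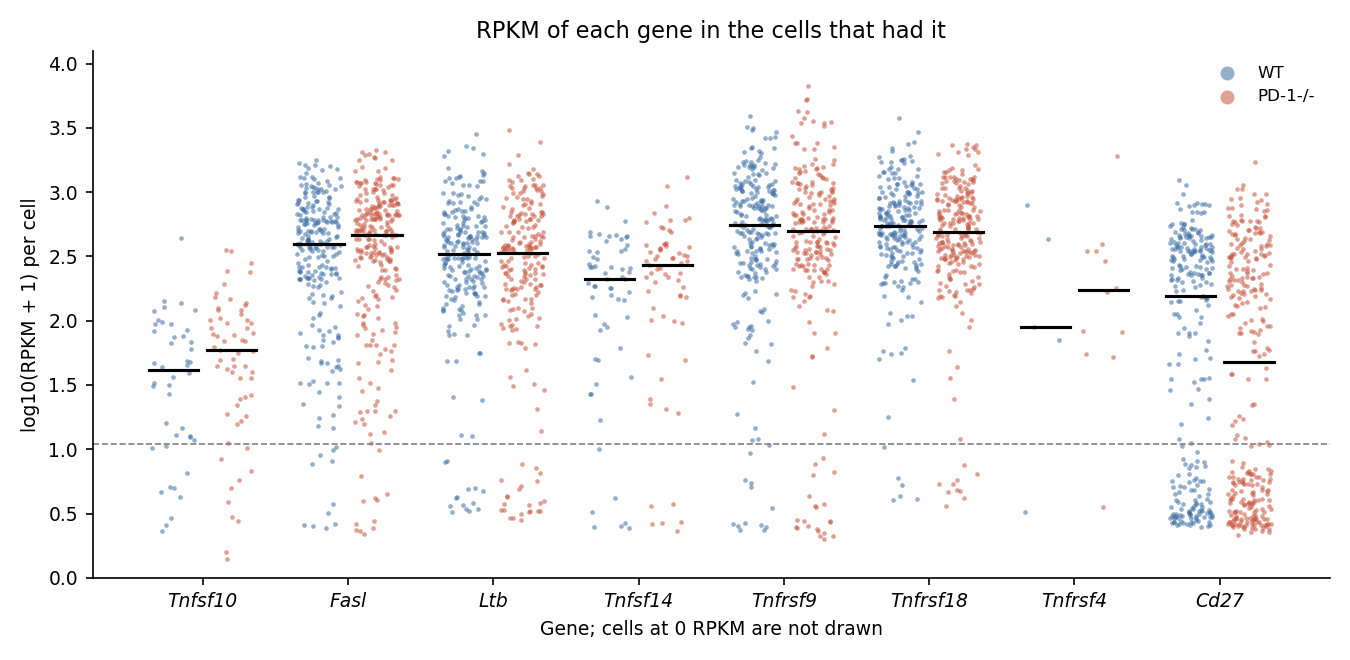
RPKM of each gene in the single cells that had it, on an axis of log10(RPKM + 1), for WT (blue) and PD-1-/- (red) cells. Each point is 1 cell, black bars are medians of the cells drawn and the dashed line marks 10 RPKM. Only Cd27 has a dense second group of cells below the line, 34.7% of the WT and 45% of the PD-1-/- cells drawn, and Tnfsf10 has the lowest median among the 4 ligands.

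For each of the 8 genes the intervals of the WT and PD-1-/- shares overlapped. For Cd27 they barely did so, with the WT interval ending at 77.3% and the PD-1-/- interval starting at 77.1%. Overlap of 2 intervals does not show that a difference lies within counting error. The share in PD-1-/- minus that in WT cells was 8.64 percentage points for Cd27, 4.72 for Tnfsf10, 3.53 for Fasl, 2.80 for Tnfrsf18, 1.89 for Tnfrsf4, 0.815 for Tnfsf14, -3.22 for Ltb and -6.55 for Tnfrsf9. Each plate row held few cells, so shares of single rows spread by counting error and are no measure for these differences. The share with Tnfsf10 ran from 4.17% to 35.3% over the rows of the WT plate and from 4.17% to 33.3% over those of the PD-1-/- plate. That with Tnfrsf9 ran from 42.9% to 87.5% and from 45% to 73.9%. For Tnfrsf18 the upper and lower rows of the plates went opposite ways: in the upper rows (A to H) 65.7% of WT against 58.2% of PD-1-/- cells had it, and in the lower rows (I to P) 59.9% against 73.1%.

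Levels were compared as the log2 ratio of mean RPKM + 1, PD-1-/- over WT. Of the 12030 genes whose mean reached 1 RPKM in 1 genotype or more, 4.71% were at least 2-fold higher and 7.34% at least 2-fold lower in PD-1-/- cells, and the median absolute log2 ratio was 0.29. Tnfrsf4 was past 2-fold, with a log2 ratio of 1.26 and means of 3.86 and 10.6 RPKM, on 5 and 12 cells, and without cells with CD3 transcripts its log2 ratio was 0.54. In the upper rows the Tnfrsf4 ratio was -0.21 and in the lower rows 2.24, and without rows A and B it was 2.06. Tnfsf10 followed at 0.85, with means of 6.97 and 13.4 RPKM, a size that 84.4% of the genes did not reach. It passed 2-fold without cells with CD3 transcripts (1.09), in the lower rows (1.23) and without rows A and B (1.09). It was smaller in the upper rows (0.57), with every well kept (0.77) and with 10 in place of 1 RPKM added to the means (0.46). The log2 ratio was 0.40 for Tnfsf14 and 0.24 for Fasl. The 4 others lay between -0.11 and -0.04. The count of 1 of 8 genes past 2-fold stands beside the 4.71% of all genes over the same cells. In the lower rows and without rows A and B, both Tnfrsf4 and Tnfsf10 were past 2-fold. Without cells with CD3 transcripts only Tnfsf10 was. The share of all genes was not taken in those settings.

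**Figure D3:**
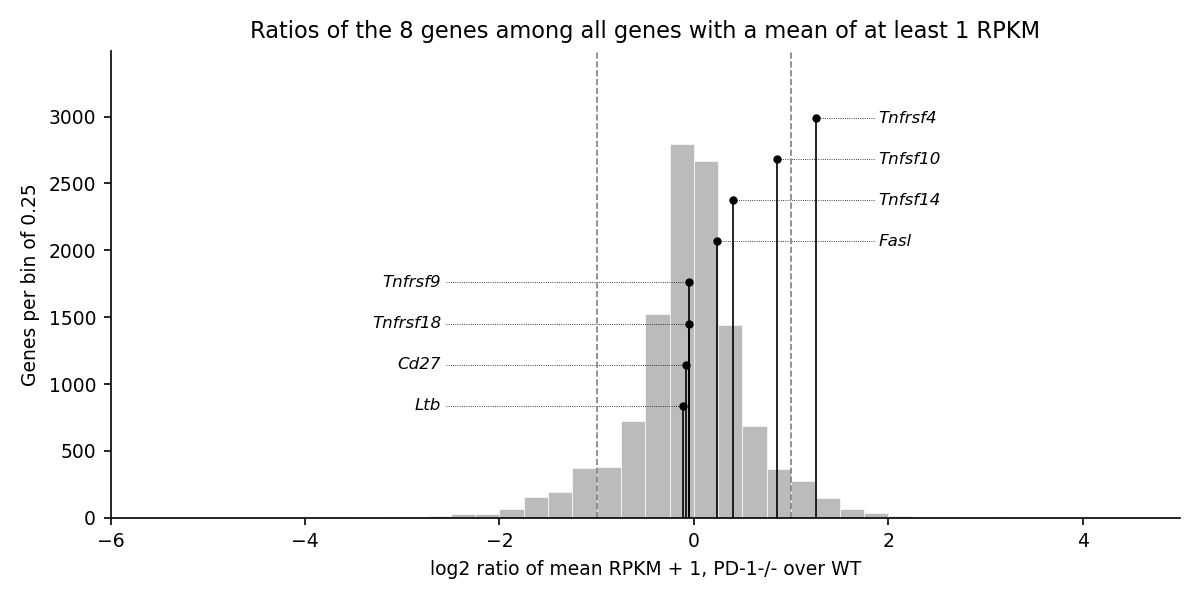
Histogram of the log2 ratio of mean RPKM + 1, PD-1-/- over WT, over 12030 genes (gray bars, genes per bin of 0.25 on the log2 scale), with the 8 genes drawn as lines of staggered height that has no meaning. Dashed lines mark a 2-fold difference. Tnfrsf4 at 1.26 lies past the right line, Tnfsf10 at 0.85 before it, and 4 genes lie between -0.11 and -0.04.

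Genes of the same pathways were read from fixed lists. Of 17 TNF family ligands, 11 reached that mean and none was past 2-fold, with a median log2 ratio of 0.11. Of 24 receptors, 19 reached it, 4 were past 2-fold higher (Tnfrsf4, Ltbr, Tnfrsf13c and Tnfrsf25) and 1, Fas, was past 2-fold lower, beside 4.71% higher and 7.34% lower of all genes, and each of these 5 was found in at most 15 cells of a genotype. None of the 10 genes of death receptor signaling was past 2-fold (median -0.02), and none of the 21 TRAF and NF-kB genes (median -0.15). The share with Casp8, which the death receptors activate, was 51.7% in WT and 51.4% in PD-1-/- cells, and that with Traf1, an adaptor of 4-1BB, 60.8% and 53%. The median of the death receptor list lay near the -0.03 of all genes, and that of the TRAF and NF-kB list lay below it. Lowest in the latter list were Nfkb2 (log2 ratio -0.80, share 41.1% in WT against 31.7% in PD-1-/- cells) and Nfkbie (-0.54). Traf4, Traf5, Traf6, Rel and Rela were higher in PD-1-/- cells, at most 0.37 for Traf6. The paper also lists Nfkb2 among genes higher in WT cells. Whether the list as a whole differed between the genotypes was not tested.

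Fas ligand and TRAIL were next set against the granule genes, which were abundant. The share of WT and PD-1-/- cells with Gzma was 89.7% and 89.3%, with a mean of 8657 and 10293 RPKM. For Gzmb the shares were 81.9% and 86.6%, for Prf1 (perforin) 88.6% and 89.6%, for Gzmc 32.2% and 23%, for Gzmm 6.39% and 2.46% and for Gzmk 4.17% and 4.1%. Of the cells in which Gzma, Gzmb and Prf1 were all found, 73% of WT and 75.9% of PD-1-/- cells also had Fasl, 27 (10.4%) and 40 (14.6%) had Tnfsf10, and 17 and 32 had both death ligands.

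Fas ligand was found more often in cells with Gzmb than in those without, and for Gzma and Prf1 part of the difference moved with CD3 transcripts. In PD-1-/- cells with Gzmb, 74.8% had Fasl (interval 69.6 to 79.5) against 51% of those without (25 of 49, 36.3 to 65.6). In WT cells the shares were 70.5% (64.9 to 75.7) and 56.9% (37 of 65, 44 to 69.2), with overlapping intervals. With and without Prf1, Fasl was found in 74.1% and 50% of PD-1-/- and in 69.6% and 56.1% of WT cells. With and without Gzma, the shares were 72.5% and 64.1% in PD-1-/- and 70% and 51.4% in WT cells. Without cells with CD3 transcripts, the difference by Gzma fell from 18.6 to 5.12 points in WT and from 8.37 to 4.70 points in PD-1-/- cells, and that by Prf1 from 13.5 to 7 points in WT and from 24.1 to 22.8 points in PD-1-/- cells. The difference by Gzmb was then 16.7 points in WT and 25.2 points in PD-1-/- cells. By Gzmc they were nearly equal, 75% and 70.6% in PD-1-/- and 69% and 67.6% in WT cells. Gzmk and Gzmm were in 9 to 23 cells of a genotype, and the share with Fasl by them ran from 44.4% to 73.3%. The level of Gzmb went with the share: Gzmb had a median of 2119 RPKM in PD-1-/- cells with Fasl and of 1256 in those without, and of 1337 and 741 RPKM in WT cells.

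TRAIL went the other way with Gzma. Tnfsf10 was found in 14.1% of PD-1-/- cells with Gzma (46 cells, interval 10.5 to 18.3) and in 41% of those without (16 of 39, 25.6 to 57.9), and the intervals did not overlap. In WT cells it was found in 11.1% (36 cells, 7.93 to 15.1) and 21.6% (8 of 37, 9.83 to 38.2), and these overlapped. The median level of Gzma was 887 RPKM in PD-1-/- cells with Tnfsf10 and 8548 in those without, and 1597 and 7141 RPKM in WT cells. CD3 transcripts moved with this result in WT: Gzma was found in 66.2% of WT cells with CD3 transcripts and in 94.9% of those without, and Tnfsf10 in 20% and 10.5%. Of the 65 WT cells with CD3 transcripts, 20 lay in rows A and B, which held 38 kept WT cells, against 9 of 45 on the PD-1-/- plate. Tnfsf10 was found in 23.7% of WT cells in rows A and B and in 10.9% in the other rows. Without these rows the difference by Gzma was -13 points in WT and -24.5 points in PD-1-/- cells. Leaving out the cells with CD3 transcripts took the WT difference from -10.5 to -2.98 percentage points, and that of PD-1-/- cells from -27 to -28.3. The difference between the genotypes was not tested.

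The other granule genes divided. By Gzmb, Tnfsf10 was about as frequent with as without, 17% and 16.3% in PD-1-/- and 12.5% and 10.8% in WT cells. By Prf1 the shares were 16.8% and 18.4% in PD-1-/- cells and 11.3% and 19.5% in WT cells. That WT difference of -8.23 points turned to 0.545 points without cells with CD3 transcripts. With Gzmc, Tnfsf10 was found in 25% (21 of 84) against 14.5% (41 cells) of PD-1-/- cells and in 19% (22 cells) against 9.02% (22 cells) of WT cells. Within 4 bins of detected genes, this difference of 10.5 and 9.95 points fell to 4.37 and 4.73 points. The related granzymes Gzmd, Gzme and Gzmf were found in 1 to 6 cells of a genotype. Of the 5 PD-1-/- cells with Gzmd, 4 had Tnfsf10, and of the 4 with Gzme, 3 had it, and of the 6 with Gzmf, 2 had it. In WT cells Tnfsf10 was found in 1 of 4 with Gzmd, 1 of 1 with Gzme and none of 3 with Gzmf.

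**Figure D4:**
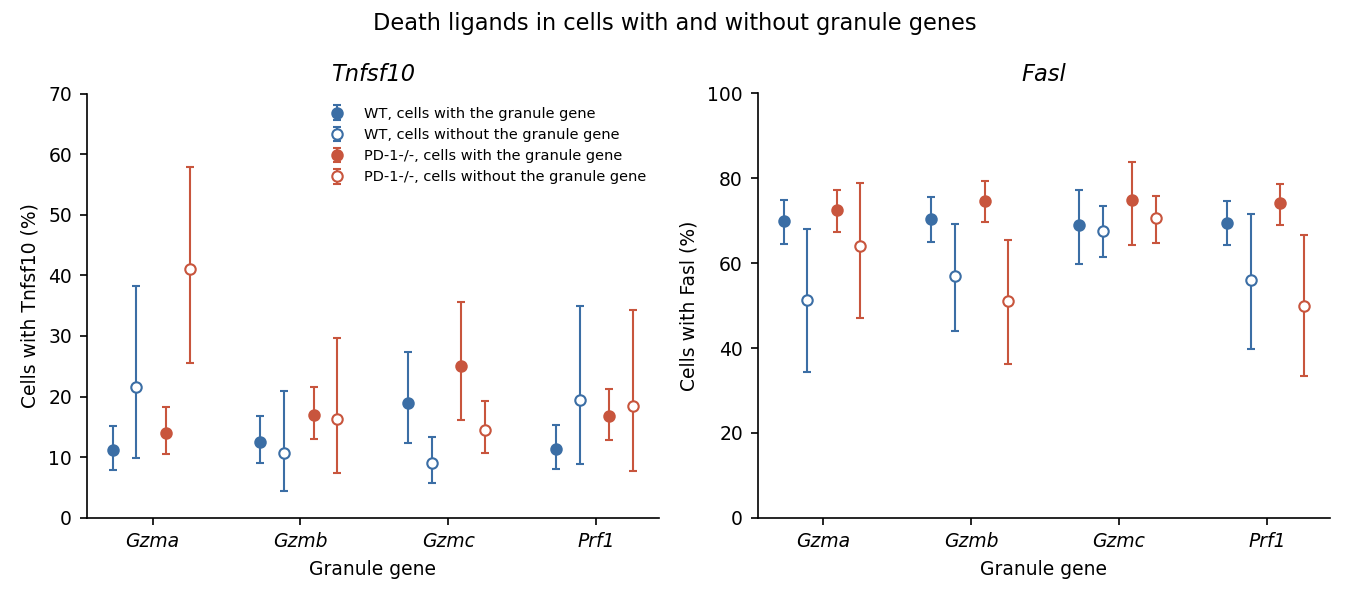
Share of cells with Tnfsf10 (left, axis to 70%) and with Fasl (right, axis to 100%) among cells with (filled) and without (open) each granule gene, for WT (blue) and PD-1-/- (red) cells. Bars are exact binomial 95% intervals. For Tnfsf10 the open red point at Gzma, 41%, lies above the filled one at 14.1%, and for Fasl the filled points lie above the open ones at Gzma, Gzmb, Gzmc and Prf1.

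Most cells with Tnfsf10 also had Fasl. Both were found in 25 WT cells (6.94%) and 49 PD-1-/- cells (13.4%), where detection independent of each other would give 29.9 and 44.4 cells. Cells with Fasl alone made up 61.1% of WT and 58.2% of PD-1-/- cells, those with Tnfsf10 alone numbered 19 and 13, and neither ligand was found in 96 (26.7%) and 91 (24.9%). The correlation of detection over cells (phi, which is 0 for independent genes) was -0.09 in WT and 0.07 in PD-1-/- cells. At least 1 of the 4 receptors was found in nearly all cells: none was found in 16 WT (4.44%) and 17 PD-1-/- cells (4.64%), and Tnfrsf9, Tnfrsf18 and Cd27 were together in 32.2% and 35.5%. At 10 RPKM or more these 3 were together in 73 (20.3%) and 68 (18.6%).

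Detection of several of the genes rose with the number of genes detected in a cell. From the lowest to the highest of 4 bins of WT cells by detected genes, the share with Ltb rose from 33.3% to 84.4%, with Tnfrsf9 from 46.7% to 81.1% and with Tnfsf10 from 3.33% to 22.2%. In PD-1-/- cells it rose from 28.3% to 74.7%, from 48.9% to 81.3% and from 9.78% to 28.6%. Fasl was flatter, from 64.4% to 72.2% in WT and from 65.2% to 78% in PD-1-/- cells.

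Phi was therefore read against every gene found in 5% to 95% of the cells of both genotypes. A gene was counted as found with a member where phi was at least 0.1 in both genotypes, a weak correlation that describes the cells of 1 pool each, carries no test and is shared in part through the depth of each cell. Of 8130 genes, 1.56% were so found with Tnfsf10, 0.492% with Fasl, 8.02% with Ltb, 0.455% with Tnfsf14, 4.54% with Tnfrsf9, 2.98% with Tnfrsf18 and 0.996% with Cd27, and of 8131 genes 0.344% with Tnfrsf4. At -0.1 or below in both genotypes were 0.0246% of genes for Tnfsf10, 0.111% for Ltb and 0.0615% for Tnfrsf9. For the others these were 5 genes for Fasl, 2 for Cd27, 1 each for Tnfsf14 and Tnfrsf18 and 0 for Tnfrsf4.

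Of the 10 genes of tissue residence compared, 6 were found with Tnfsf10, beside 1.56% of all genes: Inpp4b (phi of 0.23 in WT and 0.25 in PD-1-/- cells), Amica1 (0.18 and 0.26), Ly6a (0.16 and 0.24), Il7r (0.16 and 0.16), Itga1 (0.13 and 0.27) and Il21r (0.11 and 0.17). The median over the 10 was 0.12 and 0.21, against 0.03 and 0.02 over all genes. The study named several of these genes together with Tnfsf10 from the same cells, so the count is no independent evidence. In shares, Tnfsf10 was found in 37.7% of the 77 PD-1-/- cells with Cxcr6, which encodes a chemokine receptor of resident lymphocytes, and in 11.4% of those without. In WT cells it was found in 21.4% of the 28 with Cxcr6 and in 11.4% of those without. Within bins of detected genes, the Cxcr6 difference was 26.1 points in PD-1-/- and 5.65 in WT cells.

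The 3 genes found most closely with Tnfsf10 were Sema6d (phi of 0.23 and 0.31), Inpp4b and Klk8 (0.20 and 0.25). At the negative end stood 2 genes, Klra18 (-0.17 and -0.22) and Klra23 (-0.11 and -0.24), both of the Ly49 receptor family, whose members share sequence, so that reads can be split between them. These 2 were named after their values were seen. Tnfsf10 was also found with Lag3 (0.12 and 0.21) and Il2ra (0.16 and 0.15) of the 11 activation genes compared, with Gzmc (0.14 and 0.12) of the 6 granule genes compared, with the T cell marker Cd3e (0.11 and 0.15) of 3 compared and with Ltb (0.11 and 0.18) of the 8 other ligands compared.

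Ltb was found with the largest number of genes. Its nearest, Mir6973a (0.43 and 0.43), lies inside Ltb, so that the same reads may count for both. Cxcr3 (0.26 and 0.29), a chemokine receptor, and Lpxn (0.30 and 0.25) followed. Of 21 TRAF and NF-kB genes, 3 were found with Ltb: Nfkb2 (0.23 and 0.14), Traf1 (0.19 and 0.12) and Nfkbia (0.11 and 0.17), beside 8.02% of all genes. The median phi over the 21 was 0.06 and 0.06, against 0.05 and 0.05 over all genes. Of the 8 other ligands, 4 were: Lta (0.21 and 0.16), Tnf (0.19 and 0.17), Tnfsf10 and Tnfsf14 (0.10 and 0.10). Lta and Tnf neighbor Ltb in the genome. Of 10 genes of tissue residence 6 were, among them Itga1 (0.20 and 0.16), Xcl1 (0.17 and 0.30) and Rgs1 (0.21 and 0.20).

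Against Ltb stood Gzma (-0.15 and -0.19), Gzmb (-0.13 and -0.13), Itgam (-0.13 and -0.20), which encodes CD11b, and Cma1 (-0.21 and -0.13). CD3 transcripts moved with Ltb. All of Cd3d (0.13 and 0.10), Cd3e (0.14 and 0.18) and Cd3g (0.19 and 0.23) were found with it, and Ltb was found in 81.5% of WT cells with CD3 transcripts against 59% without, and in 71.1% against 56.5% of PD-1-/- cells. Their part in the relation to Gzma was not tested.

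Fasl had few companions. The nearest were Sh2d2a (0.15 and 0.15), which encodes a T cell adaptor, 1110008F13Rik (0.14 and 0.13) and Cenpb (0.13 and 0.13). Gzmb (0.11 and 0.18) was the 1 granule gene of 6 at the limit in both genotypes, and Klre1 (0.12 and 0.12) the 1 NK marker of 4. Fasl was found in 52.3% of the WT cells with CD3 transcripts against 71.5% without, and in 65.1% against 73.5% of PD-1-/- cells. It was about as frequent with as without Cxcr6, at 75.3% and 70.6% of PD-1-/- and 71.4% and 67.8% of WT cells. Tnfsf14 was found with Tgm2 (0.15 and 0.15), Cd160 (0.14 and 0.14), which encodes a receptor that like LIGHT binds HVEM, and Akirin1 (0.14 and 0.14).

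Among the receptors, the genes nearest to Tnfrsf9 were Gas5 (0.27 and 0.21), Serpina3g (0.22 and 0.21) and 1500012F01Rik (0.20 and 0.21). Of 6 granule genes it was found with Gzmc (0.17 and 0.17) and Prf1 (0.22 and 0.10), and with Gzmb phi was 0.26 in WT but 0.07 in PD-1-/- cells. Tnfrsf9 was found in 55.4% of WT cells with CD3 transcripts against 68.5% without, and in 60.2% against 59.4% of PD-1-/- cells. For Prf1 these shares were 67.7% and 93.2% (WT) and 79.5% and 92.6% (PD-1-/-). For Gzmb they were 72.3% and 84.1% (WT) and 83.1% and 87.6% (PD-1-/-). The part of CD3 transcripts in these correlations was not tested. Of 21 TRAF and NF-kB genes Tnfrsf9 was found with Traf1 (0.12 and 0.13), Relb (0.10 and 0.16) and Nfkbib (0.19 and 0.12), 3 in 21 against 4.54% of all genes. Klf2 (-0.13 and -0.17), a factor of lymphocyte circulation, stood against it. Tnfrsf18 was found with Ppp1ca (0.21 and 0.20), Tes (0.21 and 0.19) and Cd47 (0.20 and 0.18), and of the other ligands with Ltb (0.15 and 0.17). Tnfrsf4, found in 17 cells in all, had Nup37 (0.24 and 0.17), Stap1 (0.16 and 0.18) and Cc2d1a (0.16 and 0.16) nearest.

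Cd27 was found with Trim25 (0.16 and 0.16), Txnl4a (0.16 and 0.15) and Apobec3 (0.18 and 0.15), and of the receptors with Tnfrsf9 (0.10 and 0.12). By CD27 and CD11b, the pair that stages mouse NK cells, cells at 10 RPKM or more of Cd27 without Itgam made up 39.4% of WT and 38.3% of PD-1-/- cells, and cells with Itgam and Cd27 below 10 RPKM 35 (9.72%) and 52 (14.2%). This split was chosen after the values were seen. Ltb was found in 71.1% of the first class and 48.6% of the second in WT and in 72.9% and 36.5% in PD-1-/- cells, and Tnfrsf9 in 69% and 60% and in 67.1% and 50%. For Tnfsf10 these shares were 16.2% and 11.4% (WT) and 19.3% and 13.5% (PD-1-/-). Fasl differed little between these 2 classes, at 66.9% and 68.6% of WT and 67.1% and 69.2% of PD-1-/- cells. Cells with both made up 8.06% and 6.56%, and cells with neither 42.8% and 41%. Fasl was found in 82.8% (WT) and 70.8% (PD-1-/-) of cells with both and in 66.2% and 76.7% of those with neither. Itgam was found in only 17.8% of WT and 20.8% of PD-1-/- cells, so a cell without it is not shown to lack CD11b. The median number of detected genes was 2379 and 2221 in WT and 2479 and 1974 in PD-1-/- cells of the first 2 classes, and its part in these differences was not tested.

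**Figure D5:**
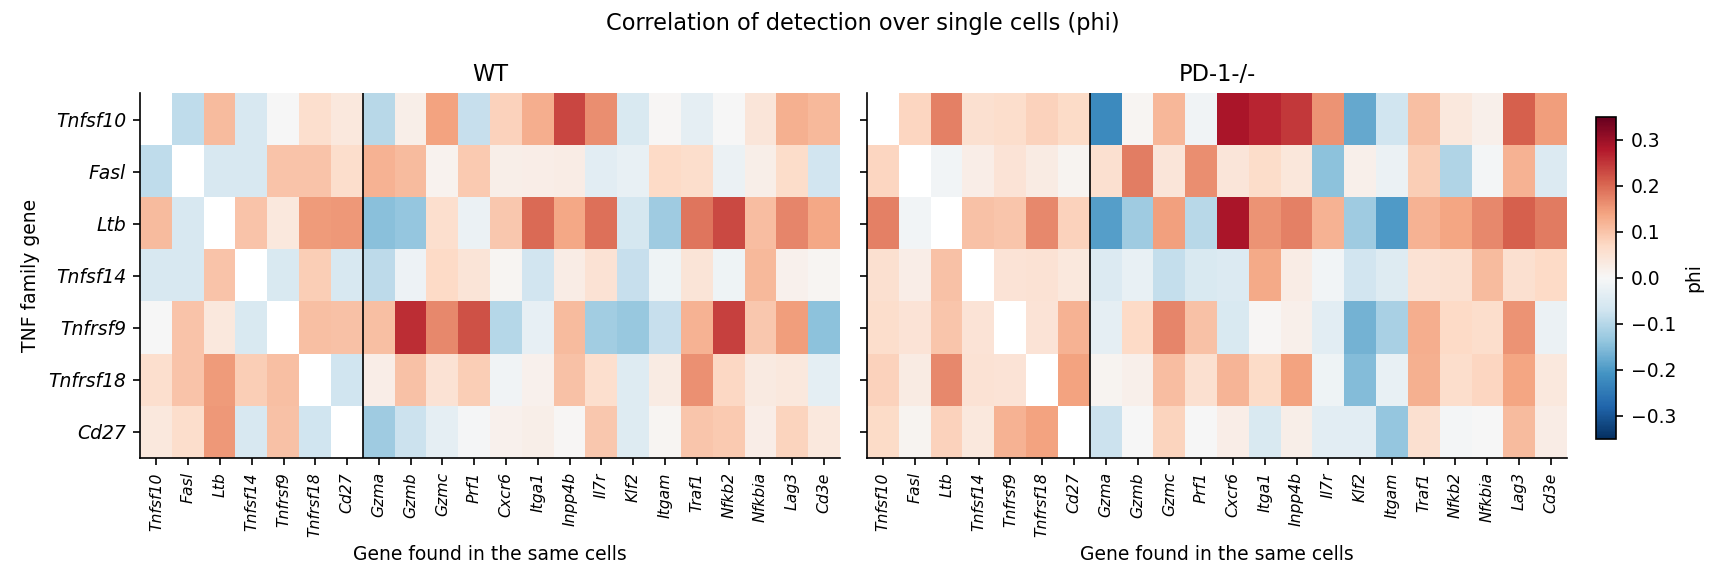
Correlation of detection (phi) between 7 of the genes (rows, Tnfrsf4 left out as it was in 17 cells) and the same genes and 15 others (columns) over WT (left) and PD-1-/- (right) cells, with red for genes found in the same cells and blue for genes found apart. White cells on the diagonal are a gene with itself. The row of Tnfsf10 is red at Itga1 and Inpp4b and blue at Gzma in both genotypes, with the deepest colors in PD-1-/- cells, and the row of Ltb is red at Traf1, Nfkb2 and Lag3 and blue at Gzma and Gzmb in both.

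Further lists were read for the genotypes alone. Of 12 interferon-stimulated genes, 6 were past 2-fold lower in PD-1-/- cells and none higher, and each of the 6 was found in at most 22 cells of a genotype, beside 7.34% lower of all genes. Beside the 4.71% higher of all genes, 4 of the 11 genes of tissue residence were past 2-fold higher, namely Cxcr6, Itga1, Ly6a and Inpp4b. Tnfsf10 was found with 3 of these 4 at the limit in both genotypes. The study named Cxcr6, Itga1 and Ly6a together from these same cells, so this count is no independent evidence. Of 15 activation genes that reached a mean of 1 RPKM, 2 were past 2-fold higher, and of 11 genes of circulating and mature NK cells 2 were. Of 13 granule genes 3 were past 2-fold higher (Gzmd, Gzme and Gzmf, in 1 to 6 cells of a genotype) and 1, Gzmm, past 2-fold lower.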

How the data were processed

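RPKM values per gene and well were deposited by the authors for 768 wells on 2 plates (24490 entries), and no other scaling was applied. The submitters' processing notes name TopHat and Cufflinks and the builds mm9 and mm10, with no role given. Per the labels, 382 NK cells were sorted from tumors of 3 WT and 3 PD-1-/- mice, without saying whether in total or per pool or which wells held no cell, and replicates of a genotype are cells of 1 pool. The members and lists were chosen with earlier results of these data known. Whole reads, used for depth and thinning, were recovered from the RPKM steps of 9949 genes (94.5% of values were whole within a tolerance of 0.0003 of a read). Log2 ratios used a pseudocount of 1 RPKM and genes whose mean reached 1 RPKM in either genotype. Phi is the Pearson correlation of detection. No test between genotypes was run, since each was 1 pool, and 18 alternatives were planned. Genes were named by membership, by the granule genes, by the 3 largest phi values of each member and by list. The statistics were tested on simulated data. Positions and promoters are from RefSeq (GRCm38.p6). Doublets were not called. Some items are not reported here. Python 3.11.15, numpy 2.4.6, pandas 2.3.3, scipy 1.17.1 and matplotlib 3.10.9 were used.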

Additional observations from a re-analysis of the deposited data

Results flagged for a closer look

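Above the limit of 3500 detected genes lay 30 wells, 16 WT and 14 PD-1-/-, which the comparisons above left out and the alternative that kept every well included. Signal of 7 of the 8 genes appeared in them above the limit that a count of 0 allows: Tnfsf10 was found in 50% of these wells, Fasl in 73.3%, Ltb in 93.3%, Tnfsf14 in 43.3%, Tnfrsf9 in 96.7%, Tnfrsf18 in 90.0% and Cd27 in 76.7%. Tnfrsf4 was in 1 well, under that limit. The mean level was 26.8 RPKM for Tnfsf10, 194.9 for Fasl and 959 for Tnfrsf9. Fasl thus had a lower mean there than in the kept cells of either genotype, where it was 326.3 and 386 RPKM, whereas Tnfrsf9 had a higher one than the 487 and 472 RPKM of the kept cells. In the 12 wells with fewer than 1000 detected genes, none had Tnfsf10, Fasl, Ltb, Tnfsf14 or Tnfrsf4, 3 had Tnfrsf9, 1 had Tnfrsf18 and 5 had Cd27.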

How the results depend on the processing

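Of 64 alternatives for the difference in share between the genotypes, 60 stayed within the counting interval of the difference. Among these, that of Tnfrsf9 (-6.55 points) ran from -0.892 points in the upper rows to -12.3 after thinning to 100000 reads. It was -12.1 in the lower rows and -9.11 without cells with CD3 transcripts. The 4 alternatives outside the interval were of Tnfrsf18 and Cd27. For Tnfrsf18 the difference was -7.58 points in the upper rows (A to H) and 13.2 in the lower (I to P). For Cd27 it was -2.69 points at 10 RPKM or more and -2.57 after thinning to 100000 reads, against 2.80 and 8.64. Of 64 alternatives for log2 ratios, 59 stayed within 1.5-fold. All others were of Tnfrsf4 (1.26), at 0.57 with a pseudocount of 10 RPKM, 0.54 without cells with CD3 transcripts, 2.24 in the lower rows, 2.06 without rows A and B and, turned in direction, -0.21 in the upper rows. Tnfsf10 (0.85) passed 2-fold in 3 alternatives, at 1.09 without cells with CD3 transcripts, 1.23 in the lower rows and 1.09 without rows A and B. It fell to 0.77 with every well kept, 0.57 in the upper rows and 0.46 with a pseudocount of 10 RPKM. The count of genes at least 2-fold higher (567) was 93 where a mean of 10 RPKM was asked for, 934 with a pseudocount of 0.1 and 15 with one of 10, and the count lower (883) was 85 under that same demand and 30 with a pseudocount of 10 RPKM. The causes were not tested. All 96 alternatives for the death ligands with Gzma, Gzmb, Gzmc and Prf1 stayed within the counting interval, which was wide since as few as 37 cells lacked a granule gene, and 9 had another sign. Without cells with CD3 transcripts, the WT difference by Gzma fell from 18.6 to 5.12 points for Fasl and that by Prf1 went from -8.23 to 0.545 for Tnfsf10. No paired analysis was possible because each genotype was 1 pool and no result comes from a test. With medians of 325288 and 347914 recovered reads per cell, which cover only a part of the genes, a gene not found may be below detection.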
